A study of Mus musculus with 8 samples.

Results

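The genes that encode the proteasome were followed in the RNA of CD11b+ cells from the brains of 4 control and 4 CSF1 OE mice. They were chosen by symbol, as every gene whose name begins with Psma, Psmb, Psmc, Psmd, Psme, Psmf or Psmg and a number, which gave 50 of the 20308 symbols measured. Of these, 31 encode the constitutive subunits that every cell uses, and 5 encode the immunoproteasome parts that were compared with them (Psmb8, Psmb9, Psmb10, Psme1 and Psme2). The other 14 encode further activators, an inhibitor, assembly chaperones and tissue-restricted subunits, together with Psmc3ip, which shares the symbol but is not a subunit, and Psme2b, a copy of Psme2. After a filter on low counts 49 of the 50 were tested, and the one that was not is Psmb11, the subunit of the thymus.

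CSF1 OE mice secrete the growth factor CSF1 from a subset of GFAP+ cells, in which a tTA protein switches on a TRE-driven transgene, whereas controls do not overexpress CSF1. Both groups were F1 offspring of C57Bl/6 and CD1 mice and were aged 14 or 15 postnatal days. Microglia were enriched from 1 brain hemisphere per mouse with magnetic beads against CD11b, a surface protein that other myeloid cells also carry, and the transgene is driven in GFAP+ cells, not in the cells that the beads select. The sources do not state which transgene, if any, the control mice carried.

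The proteasome is the protease of the cytosol and nucleus that degrades proteins tagged with ubiquitin. Its 20S core is a barrel of alpha and beta rings in which the beta subunits PSMB5, PSMB6 and PSMB7 cut proteins, and its 19S cap recognises, unfolds and feeds in the tagged protein. In immune cells and after interferon signalling PSMB8, PSMB9 and PSMB10 take the places of these cutting subunits, and the ring formed by PSME1 and PSME2 (PA28 alpha and beta) caps the core, which alters the peptides that are supplied to MHC class I molecules.

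The promoters of the 3 immunoproteasome genes whose values did not overlap between the genotypes, and of Psmb5 as the constitutive counterpart of Psmb8, are shown because interferon-responsive genes are often controlled by 2 short motifs. These are the ISRE, searched as GAAANNGAAA, and the GAS element, searched as TTCNNNGAA, each on both strands. Each window, taken from RefSeq on build GRCm38.p6, runs from 250 bases before to 50 bases after the annotated start and is written 5′ to 3′ on the strand of the gene, with a match in capitals.
Psmb8 (chr17:34197945-34198244, plus strand): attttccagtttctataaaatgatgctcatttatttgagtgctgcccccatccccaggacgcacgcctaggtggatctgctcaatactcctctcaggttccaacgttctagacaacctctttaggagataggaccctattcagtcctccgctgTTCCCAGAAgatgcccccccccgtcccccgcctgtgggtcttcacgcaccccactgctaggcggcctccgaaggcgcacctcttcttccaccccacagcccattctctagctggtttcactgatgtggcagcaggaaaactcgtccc
Psme1 (chr14:55578244-55578543, plus strand): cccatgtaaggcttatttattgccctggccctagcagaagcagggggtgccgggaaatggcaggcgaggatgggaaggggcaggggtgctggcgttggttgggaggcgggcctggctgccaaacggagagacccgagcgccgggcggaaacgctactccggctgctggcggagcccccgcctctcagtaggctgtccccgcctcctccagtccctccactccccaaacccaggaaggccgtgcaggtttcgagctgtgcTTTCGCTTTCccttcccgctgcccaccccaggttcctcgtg
Psme2 (chr14:55591052-55591351, minus strand): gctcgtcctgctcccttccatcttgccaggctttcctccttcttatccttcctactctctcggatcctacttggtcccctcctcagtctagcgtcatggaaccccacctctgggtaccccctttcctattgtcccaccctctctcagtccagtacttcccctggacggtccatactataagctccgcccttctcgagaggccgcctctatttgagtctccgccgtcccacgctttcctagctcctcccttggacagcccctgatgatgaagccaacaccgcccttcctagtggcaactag
Psmb5 (chr14:54617946-54618245, minus strand): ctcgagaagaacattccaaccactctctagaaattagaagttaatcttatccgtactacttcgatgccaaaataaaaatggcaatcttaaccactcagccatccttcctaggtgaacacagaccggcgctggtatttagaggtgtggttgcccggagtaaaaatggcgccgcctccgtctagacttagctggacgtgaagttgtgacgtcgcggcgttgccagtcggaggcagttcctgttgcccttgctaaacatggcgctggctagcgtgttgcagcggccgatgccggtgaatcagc

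The capitals in the Psmb8 window are a GAS match that begins 97 bases before the RefSeq start. Those in the Psme1 window are an ISRE match on the opposite strand, at bases 10 to 19 from the RefSeq start. The windows of Psme2 and Psmb5 hold neither motif, and the same was true of Psmb9 and Psmb10. Among 32851 promoters in the table, 3.44% held the ISRE and 8.30% the GAS element. Of the 50 genes, 42 had a window, and among the 25 constitutive subunits with one, 2 held the ISRE (Psmb3 and Psmd4) and 1 the GAS element (Psmd2). Of the assembly chaperone genes, Psmd9 and Psmg4 held the ISRE and Psmg1 the GAS element. Among the 5 immunoproteasome genes each motif was found once. A match describes the letters only.

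The immunoproteasome genes lie in a few small clusters. Psmb8 (chr17:34197721-34201454) stands between the peptide transporter genes Tap1 and Tap2, and Psmb9 (chr17:34181987-34187764) and Tap1 (chr17:34187553-34197225) run in opposite directions from annotated starts that lie 211 bases apart, so that the annotated genes overlap at their starts. Psme1 (chr14:55578123-55581529) and Psme2 (chr14:55587441-55591113) face each other 5912 bases apart, and Psmb10 (chr8:105935735-105938444) lies apart from them. These positions are from GENCODE M21 on GRCm38. The RefSeq starts used for the promoter windows differ from them, and the windows of Psmb8 and Psme1 lie within the genes as placed here. The RefSeq start behind the Psmb9 window (chr17:34187281-34187580) lies inside Psmb9 and outside Tap1 as placed here. The overlap is therefore that of the M21 starts. The library kit does not mark strand, so reads from the overlap of Psmb9 and Tap1 cannot be told apart.

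The deposited values are expected counts, in which a read that fits several genes is divided between them, and totals per library were 12908144 to 15475465 in control and 12053259 to 14356532 in CSF1 OE mice after rounding. Levels are given as counts per 1000000 counts of the library (CPM), after TMM scaling of the library sizes in edgeR. All 10 microglia markers examined, among them Tmem119, P2ry12, Cx3cr1 and Csf1r, were expressed, and their sum ranged from 22180 to 38600 CPM in controls and from 28580 to 39760 CPM in CSF1 OE mice. The lowest sum was that of control mouse 1934, whose neuron (350 CPM) and oligodendrocyte markers (5924 CPM) were the highest of the 8 libraries. The 8 measured markers of T, NK and B cells summed to 1.68 CPM at most. Monocyte and neutrophil markers summed to 57.8 to 118 CPM in control and 37.7 to 243 CPM in CSF1 OE mice, with mouse 2019 the highest. Csf1 itself ranged from 139 to 364 CPM in control and from 167 to 400 CPM in CSF1 OE mice (log2 fold change 0.19, adjusted p = 0.796, edgeR). The 6 astrocyte markers summed to 266 to 416 CPM in control and 220 to 477 CPM in CSF1 OE mice. Of these, 3 had a log2 fold change above 0 and 3 below, from -0.50 for Gja1 to 0.88 for Gfap. Only 1, higher in CSF1 OE mice, had an unadjusted p under 0.05, and the lowest adjusted p was 0.253 (edgeR).

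In CSF1 OE mice 1 of the 49 genes tested rose and none fell. This was Psme1, the alpha subunit of the PA28 ring, at 1.63-fold. A gene was called when its Benjamini-Hochberg adjusted p over all 13407 genes tested with the quasi-likelihood test of edgeR was under 0.05 and its fold change was under 0.7 or over 1.43. By this rule 59 genes were called, which is 0.440% of those tested, and no constitutive subunit was among them. At an unadjusted p under 0.05, 29 of the 49 were higher and 0 were lower in CSF1 OE mice, against 10.1% higher and 6.44% lower of all genes tested. Estimated fold changes were above 0 on the log2 scale for 47 of 49, against 44.8% of all genes, with a median of 0.24 against -0.03.

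**Figure D1:**
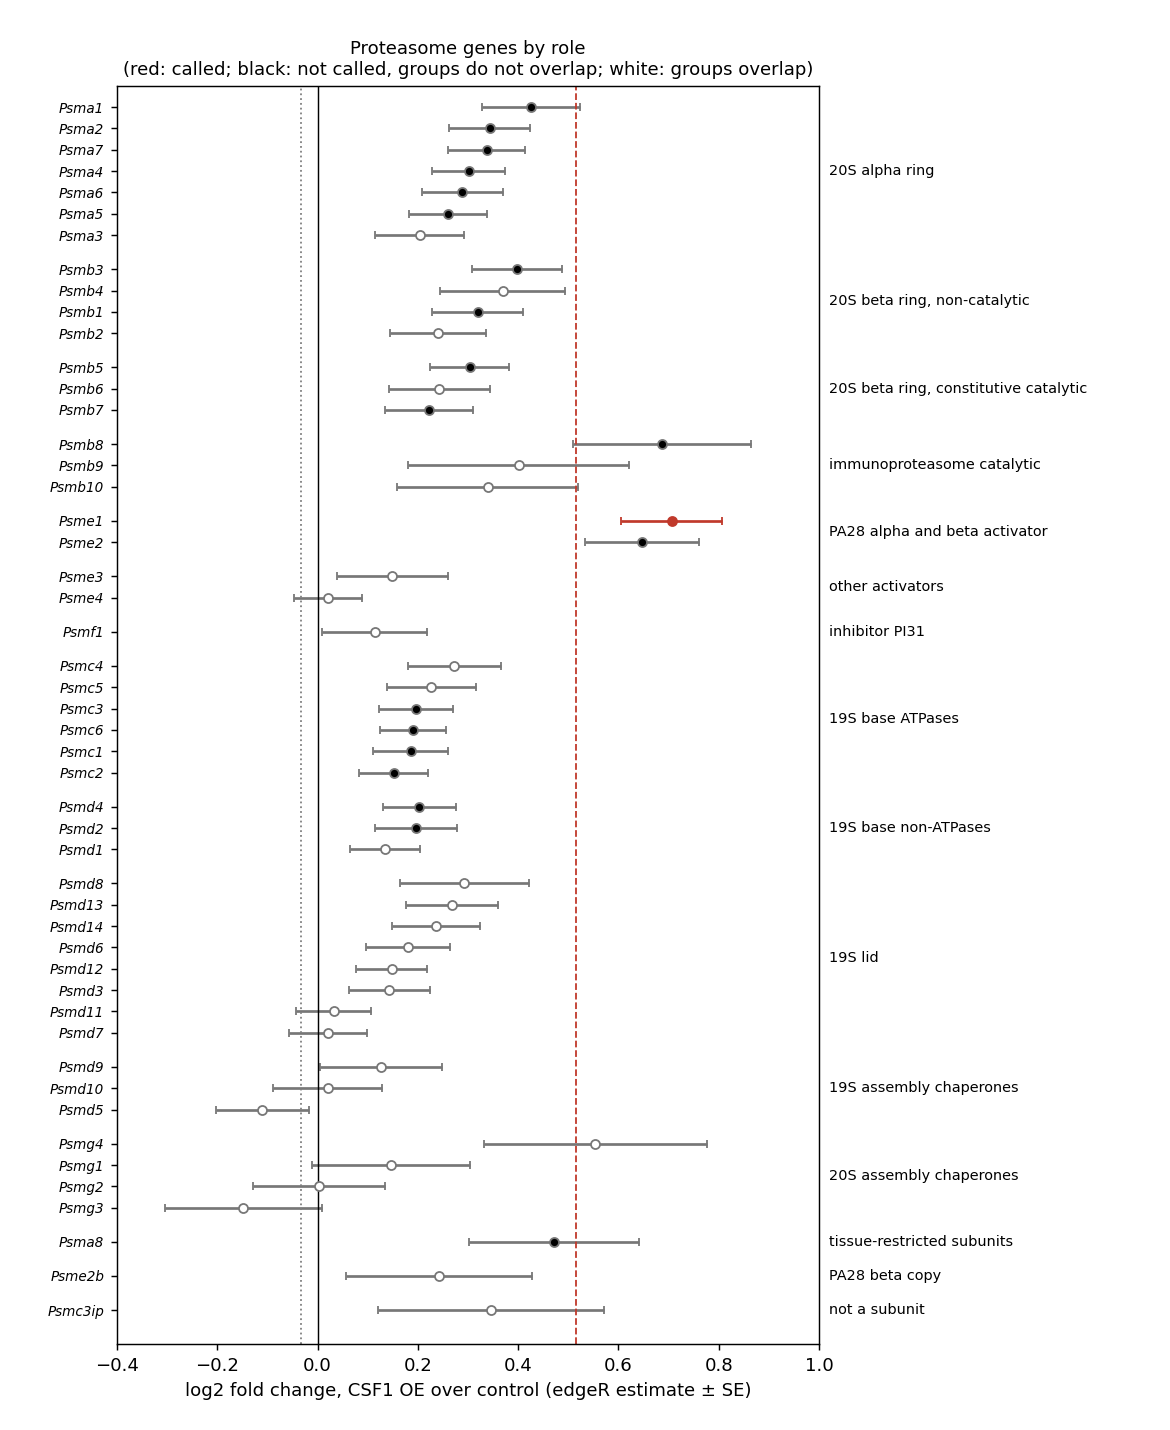
Log2 fold change (x axis, CSF1 OE over control, edgeR estimate with SE bars) of each of the 49 tested genes (y axis), grouped by role. The red point is Psme1, the only gene called, black points are genes whose 4 CSF1 OE values all exceed the 4 control values, and white points are genes whose groups overlap. The dashed line marks the fold threshold of 1.43 (0.52 on the log2 scale) and the dotted line the median of all genes, -0.03.

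Psme1 was measured at 80.6, 71.0, 69.9 and 65.9 CPM in control mice 1827, 1872, 1874 and 1934. CSF1 OE mice 1931, 1932, 1936 and 2019 had 125, 106, 132 and 106 CPM. The lowest CSF1 OE mouse stood above the highest control. Means were 71.9 ± 6.23 and 117 ± 13.2 CPM (SD, n = 4 each), a log2 fold change of 0.71 (SE 0.10, adjusted p = 0.0398, edgeR). The gene was called in 12 of 18 alternative analyses and was lost without any one of control mice 1872, 1874 and 1934 or CSF1 OE mice 1931, 1932 and 1936. Its log2 fold change stayed between 0.65 and 0.77 in all 18.

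Psme2, which encodes the beta subunit of the same ring, had 53.9, 43.9, 42.4 and 38.2 CPM in the controls and 73.3, 65.2, 74.8 and 65.8 CPM in the CSF1 OE mice, in the same order of animals. These groups also did not overlap. The means of 44.6 ± 6.66 and 69.8 ± 5.02 CPM (SD, n = 4 each) gave a log2 fold change of 0.65 (SE 0.11, adjusted p = 0.0516, edgeR), which missed the threshold. It passed in 7 of 18 alternatives, with a range of 0.56 to 0.75. Its reads could not be fully separated from those of its copy Psme2b, as the expected counts of both genes were not whole numbers in any of the 8 libraries. Psme2b took 13.7% to 25.3% of the reads of the pair, and the sum of both genes was 49.8 to 66.9 CPM in control and 77.3 to 91.6 CPM in CSF1 OE mice, again without overlap.

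Psmb8, the immunoproteasome subunit that replaces PSMB5, stood at 40.4, 31.8, 28.6 and 20.5 CPM in the controls and at 48.4, 48.3, 50.2 and 48.3 CPM in the CSF1 OE mice. The CSF1 OE values lay close together and the controls were spread over a wider range, with no overlap. The log2 fold change was 0.69 (SE 0.18, means 30.3 ± 8.22 and 48.8 ± 0.920 CPM, SD, n = 4 each), and the adjusted p of 0.109 (edgeR) did not pass. It passed in 4 of 18 alternatives, and without control mouse 1934 the log2 fold change was 0.55.

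Psmb9, which replaces PSMB6, was the least abundant of the 5 at 18.3, 15.9, 14.4 and 8.52 CPM in controls and 17.9, 16.7, 22.3 and 18.3 CPM in CSF1 OE mice. Psmb10, which replaces PSMB7, was at 43.3, 36.5, 33.0 and 22.5 CPM in controls and 44.5, 38.3, 41.4 and 46.7 CPM in CSF1 OE mice. Both groups overlapped in both genes, and control mouse 1827 exceeded 2 of the CSF1 OE mice in each. Log2 fold changes were 0.40 (SE 0.22, adjusted p = 0.397, edgeR) for Psmb9 and 0.34 (SE 0.18, adjusted p = 0.384, edgeR) for Psmb10. Without control mouse 1934 these were 0.23 and 0.20. With the animal number range as a term they were 0.66 (adjusted p = 0.0938, edgeR) and 0.59 (adjusted p = 0.0429, edgeR), so that Psmb10 was called in that 1 of 18 alternatives.

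**Figure D2:**
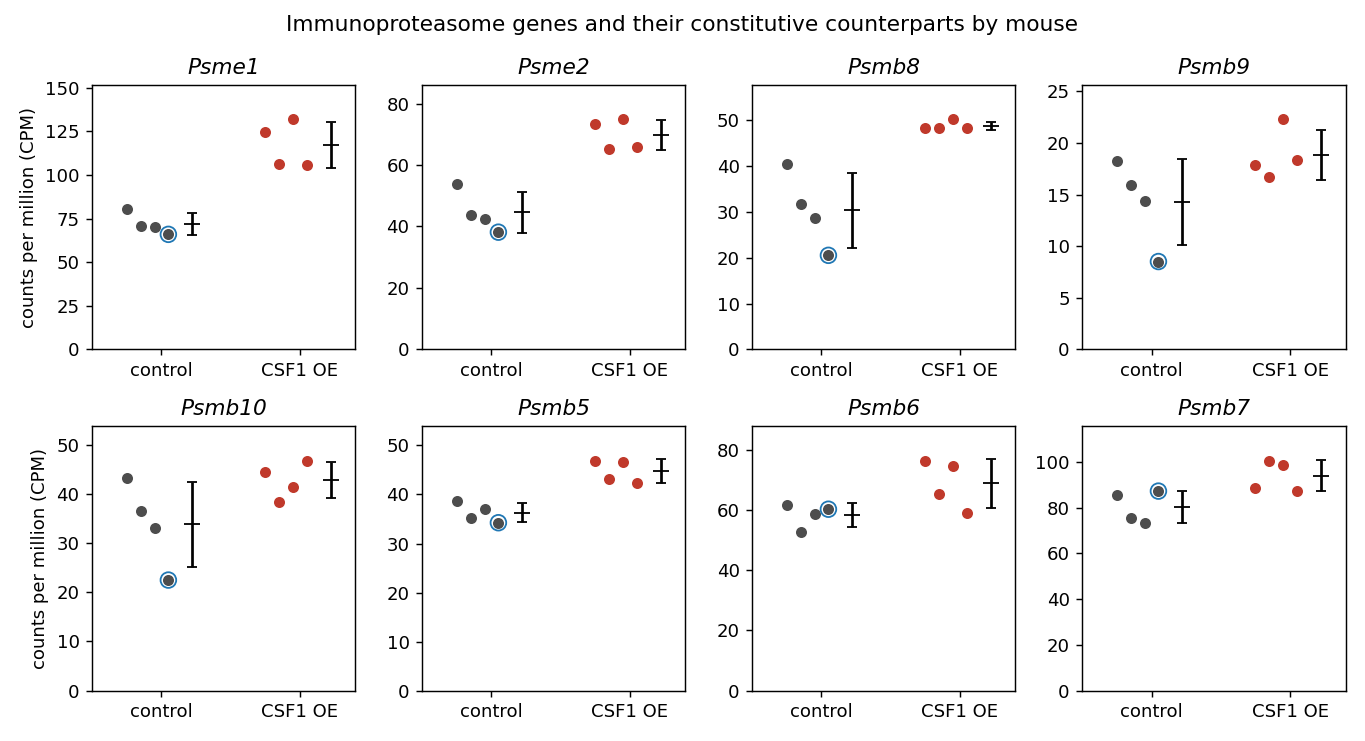
CPM (y axis, from 0) of the 5 immunoproteasome genes and of Psmb5, Psmb6 and Psmb7 in each control (grey) and CSF1 OE (red) mouse, with the mean and SD of 4 mice as a bar beside the points and control mouse 1934 ringed in blue. The groups do not overlap for Psme1, Psme2, Psmb8, Psmb5 and Psmb7, and mouse 1934 is the lowest of 8 for each of the 5 immunoproteasome genes but not for Psmb6 or Psmb7.

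Groups did not overlap, with CSF1 OE higher, in 3 of the 5 immunoproteasome genes, in 16 of the 31 constitutive subunits and in 6.84% of all genes tested. For some of the constitutive subunits the groups all but touched. The opposite order was seen in 0 of the 49 genes and in 3.45% of all genes. The median log2 fold change was 0.65 for the 5 immunoproteasome genes and 0.24 for the 31 constitutive subunits, and the first was the larger in 18 of 18 alternatives. This does not hold for each of the 5 genes. Without control mouse 1934, Psmb9 (0.229) and Psmb10 (0.197) lay below the constitutive median of 0.272. With the covariate for other cell types Psmb10 was at 0.185 against a constitutive median of 0.265.

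Control mouse 1934, which had the lowest microglia markers, was also the lowest of the 8 in all 5 immunoproteasome genes. Against 1000 CPM of microglia markers, a scale chosen after the data had been seen, Psmb8 stood at 0.824 to 1.06 CPM in controls and 1.22 to 1.75 CPM in CSF1 OE mice. On that scale Psmb10 did not overlap either, with 0.944 to 1.14 CPM in controls and 1.17 to 1.45 CPM in CSF1 OE mice. Psme1 did overlap, since mouse 1934 had 2.97 CPM and CSF1 OE mouse 2019 stood at 2.66 CPM. Psme2 overlapped as well, with controls up to 1.72 CPM and CSF1 OE mice from 1.65 CPM, and so did Psmb9 (up to 0.479 and from 0.461 CPM), Psmb5 (up to 1.54 and from 1.06 CPM) and Psmb7 (up to 3.94 and from 2.20 CPM). The 10 microglia markers of this scale did not move together. Their log2 fold changes ran from -0.63 for Fcrls to 0.60 for Aif1, with 5 above and 5 below 0. On each side 1 had an unadjusted p under 0.05 (edgeR). With the microglia markers as a covariate, also added after the data had been seen, Psme1, Psme2 and Psmb8 were called (edgeR). That fit called 332 of all 13407 genes tested, against 59 in the main analysis. Endothelial markers summed to 578 to 943 CPM in control and 283 to 675 CPM in CSF1 OE mice, and 7 of 7 had a fitted log2 fold change below 0 (2 with an unadjusted p under 0.05). Markers of border macrophages, which are CD11b+ as well, summed to 1535 to 2439 CPM in control and 1232 to 1843 CPM in CSF1 OE mice, and 6 of 6 were below 0 (5 with an unadjusted p under 0.05), with a median of -0.47. Neuron markers were below 0 in 6 of 6, with a median of -0.60 and no unadjusted p under 0.05. Oligodendrocyte markers were below 0 in 5 of 6, with a median of -0.43 and no unadjusted p under 0.05. Of the 8 monocyte and neutrophil markers, 6 were above 0 (1 with an unadjusted p under 0.05) and 2 below, with a median of 0.27. The part of these markers in the immunoproteasome values was not tested beyond the covariates. In bulk RNA a change in the number of cells of a type and a change in RNA per cell cannot be told apart.

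**Figure D3:**
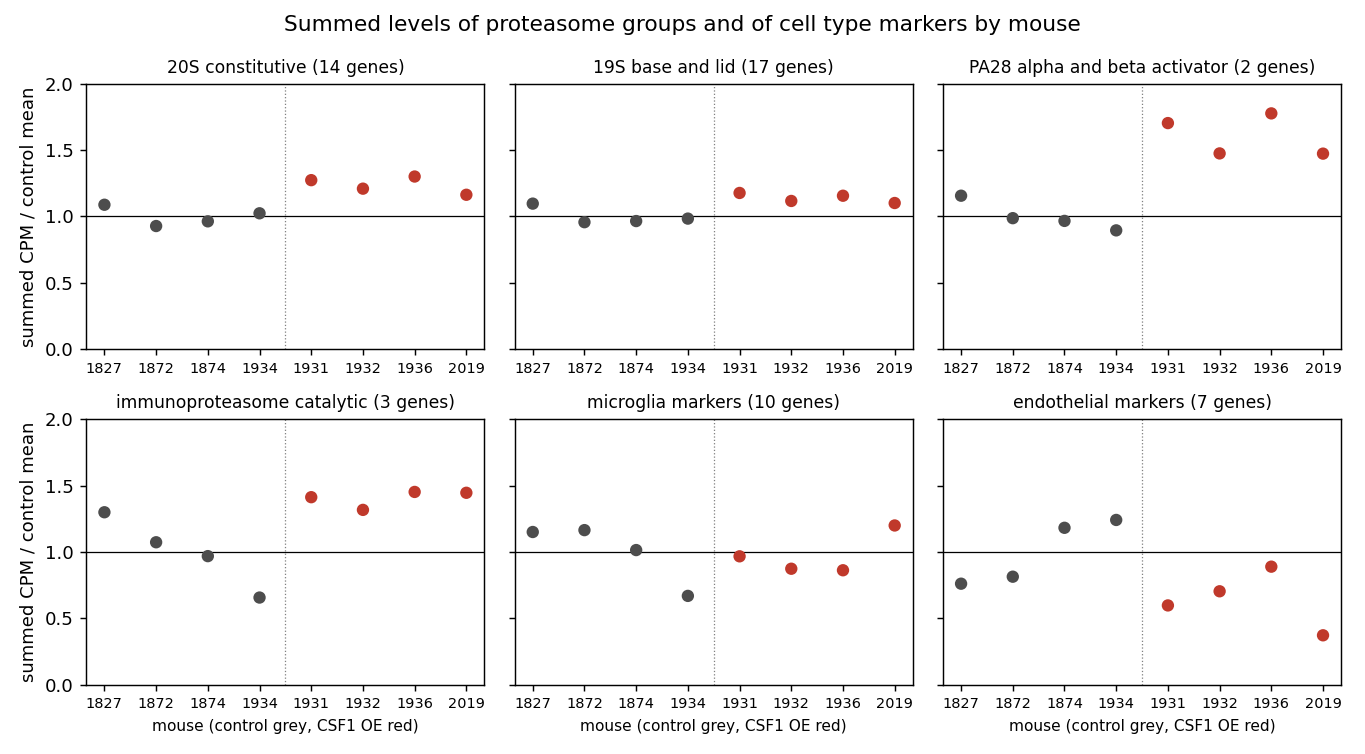
Summed CPM of groups of genes in each mouse (x axis, animal number), divided by the mean of the 4 controls (y axis), for control (grey) and CSF1 OE (red) mice. All CSF1 OE mice stand above all controls in the 4 proteasome groups, while the microglia and endothelial markers overlap, with control mouse 1934 lowest in the immunoproteasome catalytic genes and in the microglia markers.

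The constitutive core was higher in CSF1 OE mice by a small amount in each of its subunits, none of which was called. All 14 of its log2 fold changes lay between 0.20 and 0.43, 14 of 14 had an unadjusted p under 0.05, and the lowest adjusted p was 0.0824 (edgeR). Psma1, an alpha ring subunit, showed the largest estimate, at 98.5, 80.9, 80.8 and 80.1 CPM in controls and 123, 100, 115 and 119 CPM in CSF1 OE mice. The lowest CSF1 OE mouse stood just above the highest control, and the log2 fold change was 0.43 (SE 0.10, adjusted p = 0.0858, edgeR). Psma3 had the smallest in the alpha ring, 0.20 (SE 0.09, adjusted p = 0.296, edgeR), and its groups overlapped. The 7 alpha subunits together summed to 408 to 466 CPM in control and 523 to 568 CPM in CSF1 OE mice.

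The beta ring had estimates of like size, with a median of 0.30 over its 7 constitutive genes against 0.30 for the alpha ring. Psmb3, a beta subunit with no catalytic site, was at 42.6, 37.9, 37.5 and 41.9 CPM in controls and 48.5, 55.5, 57.4 and 49.0 CPM in CSF1 OE mice. Its groups did not overlap and its log2 fold change was 0.40 (SE 0.09, adjusted p = 0.0824, edgeR). Psmb2 was the lowest of the non-catalytic 4 at 0.24 (SE 0.10, adjusted p = 0.26).

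Of the cutting subunits, Psmb5, of chymotrypsin-like activity, was measured at 38.7, 35.3, 37.0 and 34.2 CPM in controls and 46.9, 43.2, 46.7 and 42.3 CPM in CSF1 OE mice, without overlap. Its log2 fold change was 0.30 (SE 0.08, adjusted p = 0.117, edgeR). Psmb6, of caspase-like activity, ran from 52.6 to 61.5 CPM in controls and from 59.1 to 76.4 CPM in CSF1 OE mice, of which only mouse 2019 lay within the control range. Its log2 fold change was 0.24 (SE 0.10, adjusted p = 0.269, edgeR). Psmb7, of trypsin-like activity, ran from 73.4 to 87.3 CPM in controls and from 87.4 to 101 CPM in CSF1 OE mice, so that the groups all but touched, with a log2 fold change of 0.22 (SE 0.09, adjusted p = 0.255, edgeR).

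Each immunoproteasome subunit was set against the subunit whose place it takes, as a ratio within a library does not depend on how libraries are scaled. The log2 ratio of Psmb8 to Psmb5 was 0.06, -0.15, -0.37 and -0.73 in the controls and 0.05, 0.16, 0.10 and 0.19 in the CSF1 OE mice. All but 1 CSF1 OE mouse lay above every control, and the difference of 0.42 (1.34-fold) had p = 0.0571 (two-sided exact permutation test of 4 mice against 4, for which 0.0286 is the smallest p; adjusted p = 0.171 over 3 ratios). The ratio of Psmb9 to Psmb6 differed by 0.20 (exact permutation p = 0.6, adjusted p = 0.714) and that of Psmb10 to Psmb7 by 0.15 (exact permutation p = 0.714, adjusted p = 0.714). Without control mouse 1934 these last differences were -0.04 and -0.07 and that of Psmb8 to Psmb5 was 0.28. Among the mice numbered from 1931 to 1936 and among the others, respectively, the differences were 0.84 and 0.34 for Psmb8 to Psmb5, 0.88 and 0.14 for Psmb9 to Psmb6, and 0.74 and 0.16 for Psmb10 to Psmb7, and the control of the first range is mouse 1934 alone. No shift of the immunoproteasome against the constitutive cutting subunits was detected by this test with 4 mice a group. After adjustment over 3 ratios, a single ratio could not have passed 0.05 even at the smallest p of 0.0286. The adjusted test therefore cannot decide on a shift of Psmb8 to Psmb5 alone.

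**Figure D4:**
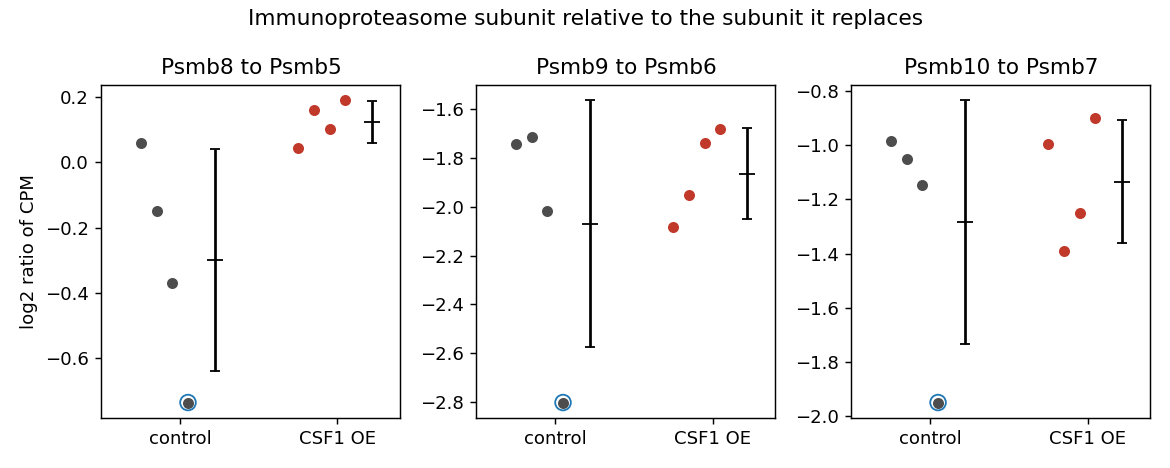
Log2 ratio of CPM (y axis) of each immunoproteasome subunit to the constitutive subunit it replaces in control (grey) and CSF1 OE (red) mice, with the mean and SD of 4 mice beside the points and control mouse 1934 ringed in blue. Mouse 1934 has the lowest ratio of the 8 in all 3 pairs. For Psmb8 to Psmb5 only control mouse 1827 lies within the range of the CSF1 OE mice, and for the other pairs the remaining 3 controls lie within it.

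Compared per kilobase of transcript, the immunoproteasome RNAs were the less abundant of each pair. In controls Psmb8 stood at 18.6 ± 5.05 CPM per kilobase against 40.4 ± 2.18 for Psmb5, Psmb9 at 10.6 ± 3.07 against 73.0 ± 4.97 for Psmb6, and Psmb10 at 25.8 ± 6.61 against 69.4 ± 6.05 for Psmb7 (SD, n = 4). In CSF1 OE mice the same levels were 30.0 ± 0.565 against 49.8 ± 2.62, 13.9 ± 1.78 against 86.3 ± 10.2 and 32.6 ± 2.81 against 81.0 ± 5.83. The ratio of Psmb8 to Psmb5 per kilobase was 0.458 ± 0.104 in control and 0.603 ± 0.0269 in CSF1 OE mice.

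In the 19S cap the estimates were smaller than in the core. The 17 subunits of base and lid had a median log2 fold change of 0.19, from 0.02 to 0.29, against 0.30 for the 14 core subunits, and 10 of 17 had an unadjusted p under 0.05. The summed core divided by the summed cap was 0.631 to 0.677 in control and 0.688 to 0.732 in CSF1 OE mice, without overlap; this ratio was chosen after the data had been seen. The core median exceeded the cap median in 18 of 18 alternatives. Core transcripts are shorter, with a median length of 1162 bases against 1636, and once each library's trend on length and GC content was removed the medians were 0.23 and 0.18.

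The base, whose ATPases unfold the substrate, held 6 of 9 genes without overlap between the genotypes, all higher in CSF1 OE mice, against 6.84% of all genes. In some of these the groups all but touched. The highest control and the lowest CSF1 OE mouse were at 76.05 and 76.39 CPM for Psmc1 and 86.6 and 86.63 CPM for Psmc2. They were at 205.8 and 206 CPM for Psmd2 and 64.63 and 64.88 CPM for Psmd4. Psmc4, the ATPase with the largest estimate, was at 59.1, 46.2, 52.5 and 51.7 CPM in controls and 69.0, 58.9, 63.5 and 61.7 CPM in CSF1 OE mice. CSF1 OE mouse 1932 lay just below control mouse 1827, and the log2 fold change was 0.27 (SE 0.09, adjusted p = 0.2, edgeR). Psmc2 was the smallest of the ATPases at 0.15 (SE 0.07, adjusted p = 0.314), and its groups were apart only by the narrow margin given above. Among the other base subunits, the ubiquitin receptor gene Psmd4 had 0.20 (SE 0.07, adjusted p = 0.221) and the scaffold gene Psmd1 0.14 (SE 0.07, adjusted p = 0.374).

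The lid, which removes ubiquitin, overlapped between genotypes in 8 of 8 genes, as did 12028 of the 13407 genes tested. Psmd8 had its largest estimate and also its widest spread, at 112, 90.2, 86.3 and 98.2 CPM in controls and 134, 124, 122 and 93.2 CPM in CSF1 OE mice. CSF1 OE mouse 2019 lay among the controls, and the log2 fold change was 0.29 (SE 0.13, adjusted p = 0.297, edgeR). Psmd7 was at 49.8 to 59.3 CPM in control and 52.4 to 56.5 CPM in CSF1 OE mice. Its log2 fold change of 0.02 (SE 0.08, adjusted p = 0.911, edgeR) took a negative sign in 5 of 18 alternatives, upper-quartile scaling among them. Psmd14, the gene of the deubiquitinase itself, was at 0.24 (SE 0.09, adjusted p = 0.232).

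Activators other than PA28 alpha and beta had smaller fold changes. Psme3, which encodes the nuclear PA28 gamma ring, ranged from 58.0 to 75.7 CPM in control and from 64.5 to 81.6 CPM in CSF1 OE mice (log2 fold change 0.15, SE 0.11, adjusted p = 0.533, edgeR). Psme4, which encodes the PA200 cap, ranged from 120 to 126 CPM and from 120 to 134 CPM (0.02, SE 0.07, adjusted p = 0.892, edgeR), with a negative sign without CSF1 OE mouse 2019 and with upper-quartile scaling. The sum of Psme1 and Psme2, divided by the sum of the 31 constitutive subunits, was 0.0488 to 0.0576 in control and 0.0697 to 0.0798 in CSF1 OE mice, which did not overlap. For the sum of Psmb8, Psmb9 and Psmb10 the same ratio overlapped, at 0.0241 to 0.0437 in control and 0.0420 to 0.0472 in CSF1 OE mice. These ratios were not among the planned comparisons. Psmf1, which encodes the inhibitor PI31, was at 23.1 to 26.5 CPM and 23.9 to 30.1 CPM (0.11, SE 0.11, adjusted p = 0.616, edgeR).

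Genes for the chaperones that assemble the particle were centred near 0, with a median log2 fold change of 0.02 over 7 genes. All 7 overlapped between genotypes, as most of the genes tested did. For the cap, Psmd9 had 0.13 (SE 0.12, adjusted p = 0.634) and Psmd5 -0.11 (SE 0.09, adjusted p = 0.578). For the core, Psmg3 had -0.15 (SE 0.16, adjusted p = 0.666), and Psmg4 had 0.55 (SE 0.22, adjusted p = 0.261, edgeR) at a low level of 2.87 to 4.57 CPM in controls and 4.07 to 6.13 CPM in CSF1 OE mice. Psma8, the alpha subunit of the testis, was at 3.43 to 4.26 CPM in control and 4.70 to 5.44 CPM in CSF1 OE mice (0.47, SE 0.17, adjusted p = 0.221, edgeR). Psmb11 had 0 to 4 expected counts per library, or 0.237 CPM at most, where a library without any count allows up to 3 counts (0.177 to 0.266 CPM, for counting error only). The remaining symbol matches were Psme2b (0.24, SE 0.19, adjusted p = 0.544) and Psmc3ip (0.35, SE 0.22, adjusted p = 0.472).

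Around the proteasome itself, the gene of its core assembly factor was called. Pomp, which encodes the protein that matures the core and is needed for the incorporation of PSMB8, was at 89.4, 73.8, 77.4 and 76.9 CPM in controls and 119, 103, 126 and 116 CPM in CSF1 OE mice. All CSF1 OE mice exceeded all controls, and the log2 fold change was 0.55 (SE 0.09, adjusted p = 0.0492, edgeR), a call made in 7 of 18 alternatives and lost without any one of 7 mice. Against 1000 CPM of microglia markers its groups overlapped, with controls up to 3.468 CPM and CSF1 OE mice from 2.925 CPM. Pomp was the only one called of 9 other proteasome factors tested, against 0.440% of all genes. Of the 9, 5 had an unadjusted p under 0.05, all higher in CSF1 OE mice, against 10.1% higher of all genes. The lowest estimate was -0.08 for the ubiquitin ligase gene Ube3c (SE 0.08, adjusted p = 0.628, edgeR). Of the 7 tested genes of proteasome transcription and stress control, 0 were called, against 0.440% of all genes. Only 1 had an unadjusted p under 0.05 (Vcp, the unfoldase p97, at 0.26, SE 0.11, adjusted p = 0.262, edgeR), against 10.1% higher of all genes. Nfe2l1, the transcription factor that raises proteasome genes when the proteasome is inhibited, was at -0.07 (SE 0.10, adjusted p = 0.742, edgeR), a sign that turned with the length and GC trend removed and with a term for animal numbers.

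Ubiquitin itself is made from fusion and polyubiquitin genes. Rps27a, in which ubiquitin is fused to a ribosomal protein, rose from 327 to 378 CPM in controls to 523 to 578 CPM in CSF1 OE mice (0.65, SE 0.08, adjusted p = 0.0322, edgeR) and was called in 11 of 18 alternatives. Its call was lost without any one of the same 6 mice as that of Psme1 (adjusted p = 0.0542 to 0.171, edgeR). Ubb, a polyubiquitin gene, was at 0.02 (SE 0.10, adjusted p = 0.937, edgeR), and its groups overlapped. The 5 shuttle factors, which carry tagged proteins to the proteasome, held 0 calls, against 0.440% of all genes, and ranged from -0.13 for Ubqln4 to 0.19 for Rad23b.

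The class I pathway, to which the proteasome supplies peptides, held 2 called genes of 12, against 0.440% of all genes tested. These were the class I heavy chains H2-K1, at 112 to 135 CPM in control and 214 to 256 CPM in CSF1 OE mice (0.91, SE 0.09, adjusted p = 0.0111, edgeR), and H2-D1 (0.73, SE 0.10, adjusted p = 0.0365, edgeR). The call of H2-K1 was lost without control mouse 1872 (adjusted p = 0.0799, edgeR) or 1874 (0.0671), and that of H2-D1 without any one of the same 6 mice as that of Psme1 (0.0542 to 0.171). H2 genes are near copies of one another, and their reads may be divided between them. B2m, the class I light chain, had 0.63 (SE 0.16, adjusted p = 0.104) and did not overlap, and the smallest estimate of the list was 0.05 for the chaperone gene Calr (SE 0.13, adjusted p = 0.867).

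The transporter genes beside Psmb8 and Psmb9 had unlike values. Tap1, which starts next to Psmb9, was at 53.7, 42.0, 37.3 and 28.3 CPM in controls and 56.3, 58.4, 72.0 and 58.0 CPM in CSF1 OE mice, without overlap (0.60, SE 0.18, adjusted p = 0.161, edgeR). Tap2 was at 39.5 to 78.9 CPM and 59.6 to 76.4 CPM (0.12, SE 0.20, adjusted p = 0.79, edgeR), and without control mouse 1934 its log2 fold change was -0.05. Nlrc5, the transactivator of class I genes, had the largest estimate of the list at 1.60 (SE 0.37, adjusted p = 0.0873), from 1.36 to 4.10 CPM in control to 5.26 to 9.68 CPM in CSF1 OE mice. Of 21 interferon-regulated genes tested, 3 were called, all higher, against 0.440% of all genes tested. The median log2 fold change of the 21 was 1.85.

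The animal numbers divide the mice unequally, since 1 control (1934) and 3 CSF1 OE mice are numbered from 1931 to 1936, and 3 controls and 1 CSF1 OE mouse (2019) lie outside that range. The labels give no batch. Differences in log2 CPM within the first range and among the other mice were 0.87 and 0.52 for Psme1, 0.89 and 0.50 for Psme2, 1.25 and 0.54 for Psmb8, 1.13 and 0.18 for Psmb9, and 0.88 and 0.32 for Psmb10. For the constitutive subunits the medians were 0.26 and 0.18. All of these kept the sign of the comparison of all mice, and within a range there is 1 mouse on one side. With the range as a term in the fit of all 8 mice, 4 members were called, namely Psme1, Psme2, Psmb8 and Psmb10 (adjusted p = 0.0249, 0.0261, 0.0281 and 0.0429, edgeR), and 1274 genes in all against 59.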

How the data were processed

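RNA of CD11b+ cells was sequenced from 4 control and 4 CSF1 OE mice, 1 library each, as paired reads in 1 lane. Per the labels' processing notes, the authors used bcl2fastq 1.8.4, Bowtie 1.0.0 and RSEM 1.2.7 with build mm10. The annotation is not given in the sources used here. The deposited expected counts per gene symbol are not normalized and were rounded here. In a second deposited table the authors divided these values by 1 size factor per mouse, which gives a normalized signal. All columns were mapped by animal number and genotype code, and 0 were left unmapped.

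The 13407 genes that passed filterByExpr were compared by the quasi-likelihood test of edgeR 4.0.16 under R 4.3.3, with TMM scaling. The study's own tool for calls, EBSeq, was not run, and its fold thresholds of 0.7 and 1.43 were kept. Log2 CPM used a prior count of 2. Ratios of 2 subunits were compared with two-sided exact permutation tests over 70 assignments. Alternatives were DESeq2 1.42.0, limma 3.58.1 on log2 of the authors' normalized values plus a pseudocount of 1, other scaling, filters, priors and covariates, and each mouse left out in turn. The pipeline was tested on simulated data. Promoters came from RefSeq and lengths from GENCODE M21, which held 99.5% of the symbols with a length.

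The members, lists and tests were chosen with earlier results of these data known. Genes named are the 5 immunoproteasome genes, Psmb5, Psmb6, Psmb7, Psme3 and Psme4, members called or not tested, the largest and smallest estimate of each role with 3 or more tested members, Pomp, Nfe2l1, Tap1, Tap2 and B2m, and the called, largest and smallest of each other list. Psmf1, Psma8, Psmd14, Psme2b, Psmc3ip and Ubb were added after their values were seen. Some genes that this rule names are not reported here. Reads per gene limit precision. SEs and SDs include the spread between mice, and the bound given with Psmb11 covers counting error only. P-values measure the spread between these mice.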

Additional observations from a re-analysis of the deposited data

Results flagged for a closer look

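In 54 groups of 4 mice examined for a value that stands apart by Dixon's criterion, 3 were found, and chance marks about 1 in 20 groups. The gap of the outlying mouse to its nearest neighbour is given as a share of the whole range of its group. Psmb8 in CSF1 OE mouse 1936 stood at 5.65 on the log2 CPM scale against 5.60 in the other 3, a share of 0.948, although the whole range was narrow. Psma1 in control mouse 1827 stood at 6.62 against 6.33 to 6.34 in the other controls, a share of 0.949. The log2 ratio of Psmb10 to Psmb7 in control mouse 1934 was -1.95 against -1.15 to -0.98 in the other controls, a share of 0.830, in the library with the lowest microglia markers. The part of these markers in the ratio was not tested.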

How the results depend on the processing

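The median log2 fold change of the constitutive subunits was 0.20 to 0.27 and that of the immunoproteasome genes 0.55 to 0.75 over 18 alternatives. The count of the 31 constitutive subunits with an unadjusted p under 0.05 moved more (edgeR). It was 24 in the main analysis and 16 with upper-quartile factors or with the length and GC trend removed. With a mouse left out it ranged from 12 (without control mouse 1872) to 26 (without control mouse 1827). Against 1 called gene in the main analysis, always counted among the immunoproteasome genes, the count was 3 with DESeq2 and with a covariate for microglia markers (added after the data had been seen), 2 with at least 10 counts in every library, with a covariate for other cell types and with limma on the authors' normalized values, and 4 with a term for animal numbers. With each mouse left out in turn it ranged from 0 to 3. It was 0 without control mouse 1872, 1874 or 1934 or CSF1 OE mouse 1931, 1932 or 1936. No constitutive subunit was called in any of the 18, though DESeq2 gave 9 of them an adjusted p under 0.05 with folds inside the threshold. All genes called numbered 59 in the main analysis and 3 to 1274 over the alternatives. They numbered 427 of 12909 tested with DESeq2, 332 with the covariate for microglia markers and 408 with that for other cell types. Limma on the authors' normalized values gave 105, the filter of at least 10 counts 59 and the term for animal numbers 1274. With a mouse left out the genes called numbered 3 to 164.

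Without control mouse 1934 the ratio of Psmb9 to Psmb6 differed by -0.040, that of Psmb10 to Psmb7 by -0.074, and the log2 fold changes of Tap2 and Calr were -0.049 and -0.014. Left out in turn, the mice gave differences of -0.040 to 0.323 for Psmb9 to Psmb6, -0.074 to 0.249 for Psmb10 to Psmb7 and 0.277 to 0.542 for Psmb8 to Psmb5, and log2 fold changes of up to 0.045 for Psme4, 0.078 for Psmd7, 0.141 for Calr and 0.227 for Tap2. Other signs turned for estimates near 0. Psme4 was at -0.002 with upper-quartile factors and -0.009 without CSF1 OE mouse 2019. Psmd7 was at -0.024 with a covariate for other cell types, -0.009 with the length and GC trend removed, -0.001 with upper-quartile factors or without CSF1 OE mouse 2019, and -0.005 without control mouse 1874. With the length and GC trend removed Ube3c was at 0.013, Nfe2l1 at 0.070 and Ubqln4 at 0.003. Nfe2l1 was at 0.036 with a term for animal numbers, and Calr at -0.071 with a covariate for other cell types. The cause of these shifts was not tested. No paired analysis was possible because the genotypes share no replicate number.

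With 4 mice a group no single constitutive subunit passed the adjusted threshold in the main analysis, which does not show that differences are absent. An adjusted p under 0.05 was reached, with folds inside the threshold, by 5 of them with the covariate for microglia markers, 4 with that for other cell types, 2 without control mouse 1827 and 1 with a term for animal numbers. The share of all genes with an adjusted p under 0.05 at any fold is not given for these fits or for DESeq2. The totals of called genes above include the fold threshold, so these counts are not set against all genes.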
